A study of Mus musculus with 24 samples.

Results

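The regenerating islet-derived (Reg) genes encode small secreted C-type lectins, and all 7 members examined here (Reg1, Reg2, Reg3a, Reg3b, Reg3d, Reg3g and Reg4) were found among the 45706 genes of the count tables. The members were taken by name, and each symbol matched 1 Ensembl identifier that is present for both tissues. RNA was sequenced from 24 libraries of organoids, which are epithelial cultures grown from crypts of the mouse small intestine (SI) or colon (COL). Mice on a C57BL/6N background carried BraffloxV600E/+, which switches from wild-type BRAF to the constitutively active kinase BRAFV600E, or Trp53LSL-R172H/+, which releases the dominant-negative p53R172H, or both alleles. BRAF, p53 and BRAFp53 stand for these 3 genotypes. All of them also carried Villin::CreERT2, a Cre recombinase that is driven in intestinal epithelium and needs 4-hydroxytamoxifen (4-HT) to act, so the non-induced (off, ethanol) organoids held the same alleles in their unrecombined form. Induced (on) organoids received 4-HT for 24 h. The dose was 0.5 µM with RNA taken on day 8 for SI, and 3.5 µM with RNA taken on day 3 for COL. Per the study's methods, the medium of colonic crypts also held Wnt3a and the GSK3 inhibitor CHIR99021. Tissue, dose, day and medium cannot be told apart. There were 12 groups of 2 libraries, and a genotype was represented in each tissue by a single donor culture. Genotype and donor can therefore not be told apart, and p-values of the induction comparisons measure only the spread between libraries of a culture, which may be technical. The comparison of off organoids between the tissues is over cultures, which within a tissue differ in donor and genotype at once. The study's methods list 3 donor mice by genotype, so the SI and COL cultures of a genotype may share a donor. The test did not pair them.

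Reg3b and Reg3g are antimicrobial lectins that intestinal epithelium releases onto its surface: Reg3g binds peptidoglycan and kills Gram-positive bacteria, and Reg3b also acts on Gram-negative bacteria. Their genes are known to respond to microbial sensing through Myd88 and to interleukin-22, which signals through Il22ra1, Il10rb and Stat3. Reg1 and Reg2 were first described in regenerating pancreas, and Reg4 is known as a marker of secretory cells, among them the deep crypt secretory cells of the colon and enteroendocrine cells.

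Of the 7 genes, 6 lie on chromosome 6 (GRCm38) within 98.2 kb, in the order Reg3b (78370657 to 78373466, plus strand), Reg3d (78375874 to 78378865, minus strand), Reg3a (78380709 to 78383827, plus strand), Reg2 (78395623 to 78408106, plus strand), Reg1 (78422711 to 78428667, plus strand) and Reg3g (78466269 to 78468872, minus strand). Reg4 stands alone on chromosome 3 (98222156 to 98236748, plus strand). The transcripts are related, with 79.7% identical bases between Reg1 and Reg2, 75.9% between Reg3a and Reg3b and 74.7% between Reg3b and Reg3g. No stretch of 50 bases of a Reg transcript occurred in a transcript of another gene, and no other gene had an exon within the span of a Reg gene, so reads of that length can be told apart between the members. The 150 bases before the RefSeq start site are shown for 3 members that fell upon induction and for Reg4, which did not fall with them in SI organoids. Capitals mark the letters TATAAA or TTCNNNGAA, the latter being the spaced palindrome that STAT factors are known to bind. Of the Reg3b window, 24 bases lie within an exon of another GENCODE transcript model of Reg3b.
Reg3b, chr6:78370735-78370884, plus strand: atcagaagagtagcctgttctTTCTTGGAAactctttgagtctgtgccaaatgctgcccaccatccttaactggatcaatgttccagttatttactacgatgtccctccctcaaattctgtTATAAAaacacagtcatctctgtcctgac
Reg3g, chr6:78468875-78469024, minus strand: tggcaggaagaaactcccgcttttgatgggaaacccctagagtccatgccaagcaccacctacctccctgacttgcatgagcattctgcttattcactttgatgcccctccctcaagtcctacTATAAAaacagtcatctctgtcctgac
Reg3a, chr6:78380559-78380708, plus strand: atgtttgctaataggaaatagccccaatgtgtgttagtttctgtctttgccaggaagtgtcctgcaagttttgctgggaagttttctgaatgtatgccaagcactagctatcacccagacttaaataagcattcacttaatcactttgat
Reg4, chr3:98222006-98222155, plus strand: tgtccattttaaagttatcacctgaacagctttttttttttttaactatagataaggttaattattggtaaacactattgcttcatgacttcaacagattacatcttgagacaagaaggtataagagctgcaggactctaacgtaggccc
The windows of Reg3b and Reg3g shared 104 of 148 aligned bases (70.3%), among them the run around TATAAA, which began at -29 in Reg3b and at -27 in Reg3g. Searched on both strands from 250 bases before to 50 after each start, TATAAA was present in 13.6% of 32851 RefSeq promoters, TTCNNNGAA in 8.3% and TGANTCA, the letters of an AP-1 site, in 7.81%. TTCNNNGAA was found in Reg3b (at -129) and Reg3d (at -238), and TGANTCA in Reg1 (at -117). The windows of Reg3a and Reg4 held none of these letters, which says nothing about the factors that act there.

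SI libraries held 44.4 M to 68.2 M counts and COL libraries 51.2 M to 78.2 M. Levels are given as CPM, the counts divided by the library size (in M) after scaling by trimmed mean of M-values. A count of 0 allows a level of up to 3 counts, which was 0.0408 to 0.0774 CPM per library. A pair of facts about the libraries bears on the results. The library labelled SI BRAF on, replicate 1, held Xist at 15.4 CPM, against 0.206 to 0.437 CPM in the other SI BRAF libraries and 104 to 150 CPM in the SI p53 and BRAFp53 libraries, while its level of the Y-linked Ddx3y (32.5 CPM) was that of the SI BRAF culture (30.5 to 36.2 CPM). These levels together were those of no single culture, the cause was not tested, and changes of the members in SI BRAF organoids are given with and without this library. The COL BRAF culture held Gata4, a factor of the proximal intestine, at 35.8 to 54.8 CPM, against 0.32 to 2.95 CPM in the other COL libraries and 72.9 to 109 CPM in SI. Fabp1, the fatty acid-binding protein of enterocytes, stood at 100 and 94.6 CPM in COL BRAF off, against 0.0931 to 0.645 CPM in the other COL off libraries and 2814 to 11048 CPM in SI off. The summed level of 10 colon position markers was 1586 to 1613 CPM in COL BRAF off, against 3918 to 20159 CPM in the other COL off libraries and 24.4 to 36.1 CPM in SI off, and that of 8 proximal markers was 162 to 165 CPM, against 50.2 to 74.8 CPM and 1489 to 2742 CPM. Hoxa13, a factor of the hindgut, was at 11.8 to 17.7 CPM in the COL BRAF culture and at 0 in 11 of the 12 SI libraries, but also at 0 to 0.0337 CPM in the COL BRAFp53 culture. Whether all cells of this culture were colonic was not tested, and this bears on every COL BRAF value and every comparison of COL with SI.

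**Figure D1:**
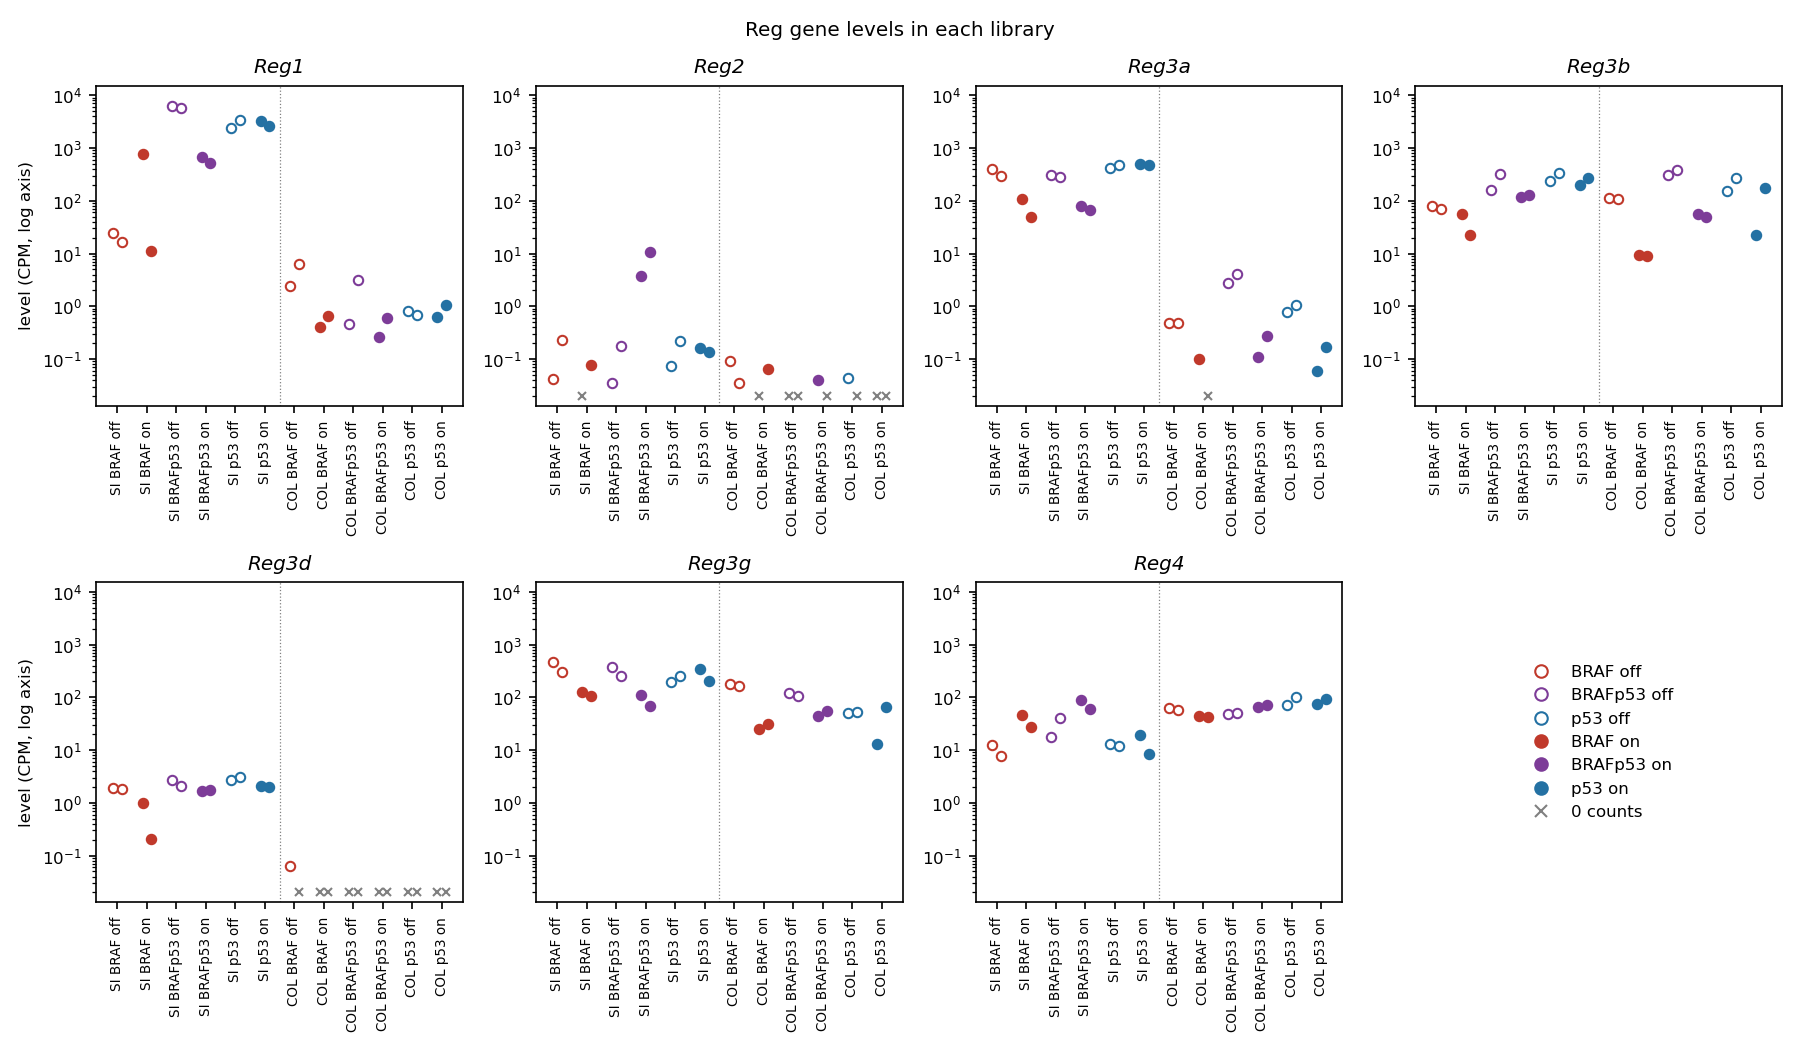
Level of each Reg gene in each library in CPM (log axis), for the 12 groups of 2 libraries; open circles are off, filled circles are on, colours are genotypes, crosses are libraries with 0 counts and the dotted line separates SI from COL. Reg1, Reg3a and Reg3d sat far lower in COL than in SI, Reg3b and Reg3g fell in COL BRAF, and SI BRAF on replicate 1 stood apart for Reg1.

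Compared per kb of the reference transcript in off organoids, Reg1 was the leading member in the SI BRAFp53 and SI p53 cultures (7879 ± 402 and 3715 ± 873 CPM per kb, mean ± SD, n = 2) but stood below Reg3g, Reg3a and Reg3b in SI BRAF (26.5 ± 7.25 CPM per kb). In the cultures that Reg1 led, Reg3a, Reg3b and Reg3g came next. In SI BRAF off, Reg3g (488 ± 148 CPM per kb) and Reg3a (429 ± 93.7 CPM per kb) overlapped in their libraries, and Reg3b was lower (96.7 ± 7.80 CPM per kb). In the SI BRAFp53 off organoids Reg3g, Reg3a and Reg3b could not be ordered beyond the spread of the libraries, with 409 ± 112, 359 ± 16.1 and 310 ± 148 CPM per kb. In COL off organoids the order began with Reg3b in BRAFp53 (447 ± 69.9 CPM per kb) and p53 (273 ± 103 CPM per kb) and with Reg3g in BRAF (225 ± 14.7 CPM per kb, against 141 ± 5.63 CPM per kb for Reg3b). Reg4 stood below both of them in COL BRAF and BRAFp53 and between them in COL p53 (57.9 ± 3.82, 49.2 ± 1.49 and 86.2 ± 20.9 CPM per kb). Reg3d and Reg2 closed the order in every off group, at no more than 3.71 CPM per kb on average.

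The make-up of the Reg transcripts differed accordingly. Reg1 gave 72.9 to 75.4% of the summed CPM of the 7 genes in the 4 SI p53 libraries and 86.5 to 87.9% in SI BRAFp53 off, but 2.38 to 2.47% in SI BRAF off, where Reg3a and Reg3g together made up most of the sum. In COL libraries Reg1 stayed under 2% and Reg3b, Reg3g and Reg4 shared nearly all of it. Upon induction of BRAFV600E the share of Reg4 in COL BRAF organoids went from 17.2 and 16.8% to 55.7 and 50.5%. The ratio of Reg3b to Reg3g went from 0.623 and 0.646 to 0.375 and 0.291 in COL BRAF. It went from 2.62 and 3.64 to 1.28 and 0.908 in COL BRAFp53. In COL p53, without BRAFV600E, the ratio was lower on than off as well (3.13 and 5.12 off, 1.71 and 2.69 on). In SI it was 0.175 and 0.241 off and 0.45 and 0.22 on in BRAF, and 0.426 and 1.27 off and 1.05 and 1.9 on in BRAFp53, and on and off overlapped in both.

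**Figure D2:**
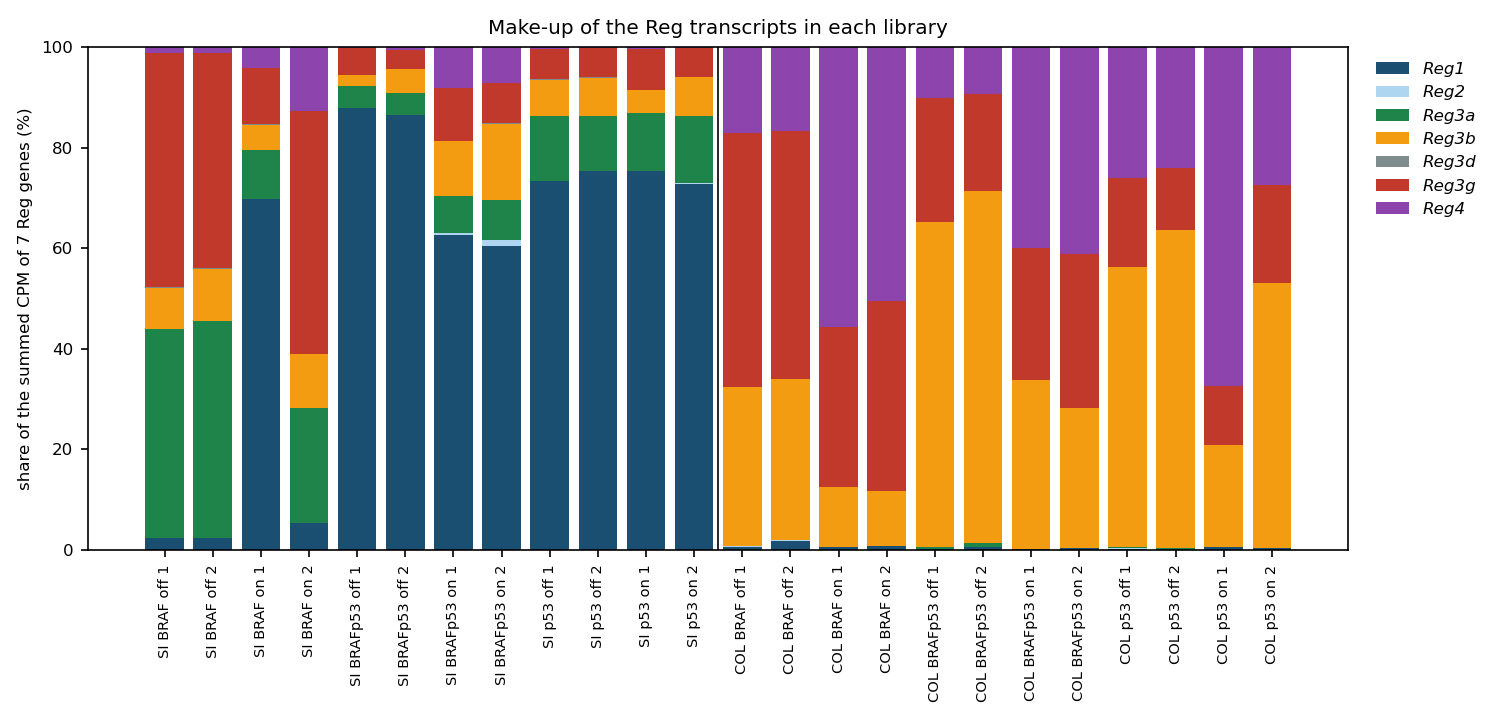
Share of the summed CPM of the 7 Reg genes that each gene took (percent, y axis), for each of the 24 libraries (x axis, labelled by group and replicate). Reg1 filled most of the SI p53 and BRAFp53 libraries, and SI BRAF on replicate 1, at 69.8% Reg1, lay nearer to these than to its own replicate at 5.3%.

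Which Reg genes differed between the tissues before induction was asked of the 6 cultures, with the off libraries of each culture summed (3 COL against 3 SI). All adjusted p-values here and below come from edgeR's quasi-likelihood test with Benjamini-Hochberg adjustment over all genes tested, and a gene is called at an adjusted p under 0.05. Of the 7 members, 4 were lower in COL and 1 was higher, against 12.6% of all tested genes called lower and 17% called higher. Reg1 was lower in COL by a log2 difference of -10.62 ± 2.12 (SE, adjusted p = 0.0112), Reg3a by -8.07 ± 0.86 (adjusted p = 0.00193) and Reg3g by -1.68 ± 0.42 (adjusted p = 0.025). Reg3d was called lower as well (adjusted p = 0.00287). It had 91 to 213 counts in the 6 SI off libraries, 4 counts in COL BRAF off replicate 1 and 0 in the other 11 COL libraries. Reg4 was higher in COL, by 1.69 ± 0.43 (adjusted p = 0.0265). Reg3b gave a difference of -0.09 with a 95% interval from -1.41 to 1.23, and Reg2 one of -2.42 (adjusted p = 0.102). Leaving out 1 culture ended some calls: without the COL BRAFp53 culture the adjusted p was 0.0776 for Reg3g and 0.0508 for Reg4, and without SI BRAF it was 0.062 for Reg3g and 0.0582 for Reg4. It was 0.07 for Reg3g without SI BRAFp53, and 0.075 and 0.0988 for Reg4 without COL p53 and SI p53. For Reg1 the adjusted p was 0.0526 without COL BRAFp53. Without the COL BRAF culture all 5 calls were kept.

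In COL BRAF organoids the antibacterial lectins Reg3b and Reg3g fell upon induction. Of 5 members tested in COL BRAF, 4 fell and none rose, against 9.61% of all genes called lower and 10.3% called higher. In COL BRAFp53, 2 of 5 fell and none rose, against 7.76% called lower and 9.95% called higher. The number called in COL BRAFp53 depended on the model: it was 4 with DESeq2 or a model of the genotype alone, and 5 without a filter on low counts. Reg2 (0 to 6 counts per COL library) and Reg3d were too low to be tested in COL. The samples are bulk organoids, so fewer cells of a type and less RNA per cell cannot be told apart in any of these results.

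Reg3b, the lectin that also acts on Gram-negative bacteria, stood at 113 and 107 CPM in COL BRAF off and at 9.32 and 9.06 CPM in COL BRAF on. It stood at 311 and 388 CPM in COL BRAFp53 off and at 55.6 and 48.9 CPM in COL BRAFp53 on. On and off did not overlap in either genotype, and the pairs lay close together. The log2 fold change was -3.58 ± 0.68 (SE, adjusted p = 0.00327) in COL BRAF and -2.74 ± 0.64 (adjusted p = 0.0122) in COL BRAFp53. The second call was lost without either on library (adjusted p = 0.0666 without replicate 1 and 0.0677 without replicate 2). In COL p53, Reg3b stood at 156 and 271 CPM off and at 22.6 and 177 CPM on, and the groups overlapped (log2 fold change -1.09, adjusted p = 0.701). In SI it stood at 80 and 71.4 CPM in BRAF off and 55.5 and 22.8 CPM in BRAF on, with replicate 1, the library with Xist, the higher of the on pair. The SI BRAF value was -0.95 ± 0.36 (adjusted p = 0.063), and without that library it was -1.71 and passed the test (adjusted p = 0.00205). SI BRAFp53 went from 160 and 325 CPM to 116 and 130 CPM (log2 fold change -0.98, adjusted p = 0.1), and SI p53 libraries held 197 to 334 CPM in both states.

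Reg3g, the lectin against Gram-positive bacteria, fell in COL BRAF from 182 and 166 CPM to 24.9 and 31.2 CPM (log2 fold change -2.63 ± 0.50, adjusted p = 0.00333), a call that was kept without any 1 library. In COL BRAFp53 it stood at 119 and 107 CPM off and at 43.6 and 53.9 CPM on. These pairs did not overlap either, but the change of -1.21 ± 0.48 did not pass the test (adjusted p = 0.104). In SI BRAF, Reg3g fell from 457 and 296 CPM to 123 and 104 CPM (-1.73 ± 0.30, adjusted p = 0.000694), and without on replicate 1 the change was -1.84 (adjusted p = 0.0025). In SI BRAFp53 it fell from 376 and 255 CPM to 110 and 68.1 CPM (-1.82 ± 0.30, adjusted p = 0.00144). The SI responses of both genotypes differed by -0.09 for Reg3g, with a 95% interval from -0.98 to 0.80. In p53 organoids it stood at 195 and 255 CPM off and 346 and 200 CPM on in SI, and at 50 and 52.9 CPM off and 13.2 and 65.8 CPM on in COL.

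The low values of Reg3b and Reg3g in COL p53 on both came from replicate 1. Without it, Reg3g changed sign in COL p53 (0.35 instead of -0.38 on the log2 scale), and without replicate 2 the change was -1.97 and passed the test (adjusted p = 0.00512).

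Reg3a, another member of the Reg3 group of lectins, was abundant in SI and scarce in COL. In SI it stood at 408 and 299 CPM in BRAF off, 106 and 49.1 CPM in BRAF on, 306 and 287 CPM in BRAFp53 off and 79.1 and 67.7 CPM in BRAFp53 on. Every induced library lay below every off library of its genotype. The log2 fold changes were -2.18 ± 0.27 (adjusted p = 4.35e-05) and -2.01 ± 0.26 (adjusted p = 0.000244), and they differed by 0.17 with a 95% interval from -0.61 to 0.95. Without SI BRAF on replicate 1 the change in BRAF was -2.83 (adjusted p = 3.68e-07). In SI p53 it stood at 418 and 484 CPM off and 494 and 473 CPM on. In COL the counts were small: 31 and 27 in BRAF off, 6 and 0 in BRAF on, 179 and 270 in BRAFp53 off, 8 and 16 in BRAFp53 on, 53 and 70 in p53 off and 4 and 12 in p53 on. The change passed the test in COL BRAF (-3.10 ± 0.90, adjusted p = 0.0307) and COL BRAFp53 (-4.19 ± 0.82, adjusted p = 0.00451). The COL BRAF call was lost without off replicate 1, off replicate 2 or on replicate 2 (adjusted p = 0.0785, 0.0732 and 0.118), and without on replicate 1 the remaining on library is at 0 counts. In COL p53 the value was -2.96 ± 0.81, with an unadjusted p of 0.00328 that did not pass adjustment (adjusted p = 0.227).

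Reg3d, a further Reg3 gene of the cluster, was low in SI, with 91 to 213 counts in the 10 libraries other than BRAF on. It had 91 and 115 counts in SI BRAF off, and 49 and 8 counts in SI BRAF on. It fell in SI BRAF (-1.63 ± 0.48, adjusted p = 0.0199), and without on replicate 1 the change was -3.16 (adjusted p = 0.000214). The call was lost without off replicate 1 (adjusted p = 0.0592), off replicate 2 (0.0596) or on replicate 2 (0.093). In SI BRAFp53 the counts were 156 and 117 off and 91 and 116 on, with no call (-0.50, adjusted p = 0.556).

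**Figure D3:**
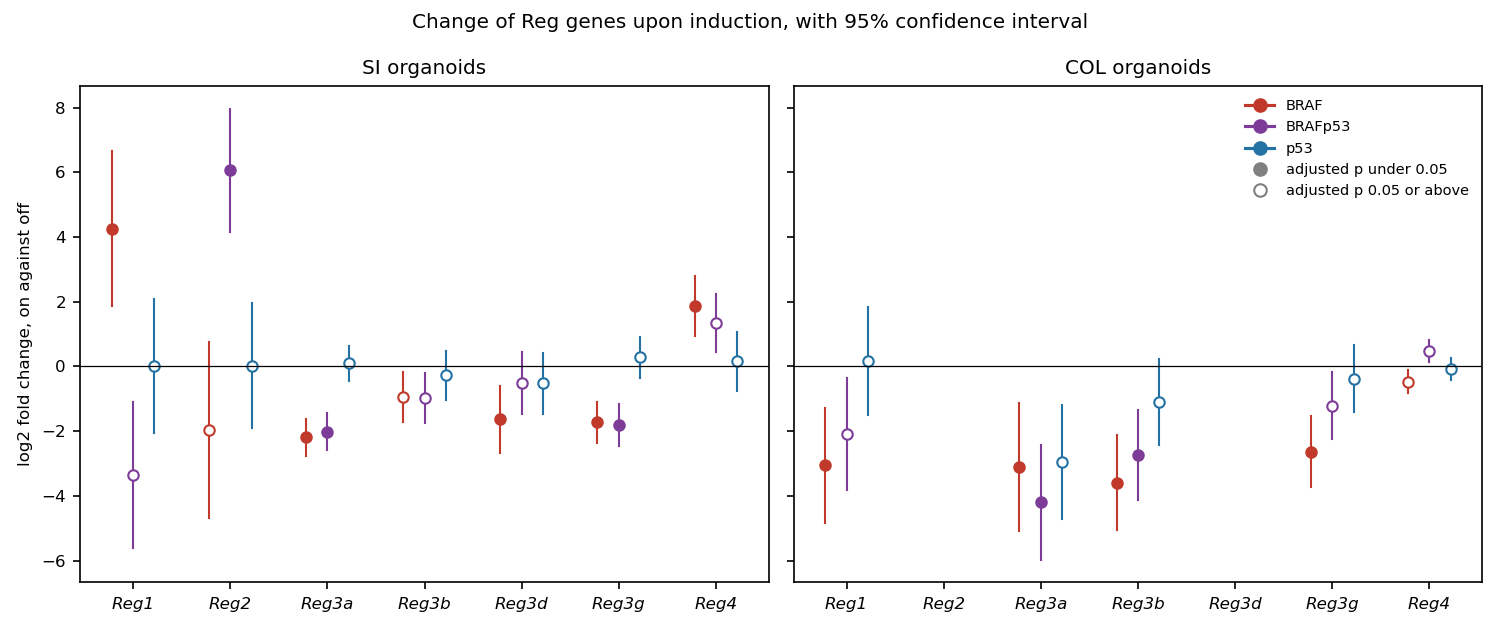
Log2 fold change of each Reg gene upon induction (y axis) with its 95% confidence interval (lines), for SI (left) and COL (right) organoids, coloured by genotype; filled circles have an adjusted p under 0.05. Reg3a and Reg3g lay below 0 in BRAF and BRAFp53 organoids of both tissues, Reg4 lay above 0 in SI, and Reg2 and Reg3d were not tested in COL.

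Reg1, the founding member of the family, showed the widest range of levels. In SI it stood at 24.3 and 16.5 CPM in BRAF off and at 769 and 11.4 CPM in BRAF on. The high value belongs to the library with Xist (on replicate 1), and it was 12.7% of the mean level in SI BRAFp53 off (6059 CPM), where the Xist level of that library was 10.7% of the mean of the same group. Against the SI p53 off culture the shares were 26.9% for Reg1 and 12.4% for Xist, and against SI BRAFp53 on they were 130% for Reg1 and 12.5% for Xist. With this library the change of Reg1 in SI BRAF was called higher (4.26 ± 1.11, adjusted p = 0.01). Without it the direction turned: Reg1 fell by 0.82 on the log2 scale (adjusted p = 0.0316), where the lone on library is taken to vary like the other groups. The call for a rise was also lost without off replicate 1 (adjusted p = 0.0535) or off replicate 2 (0.0845).

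**Figure D4:**
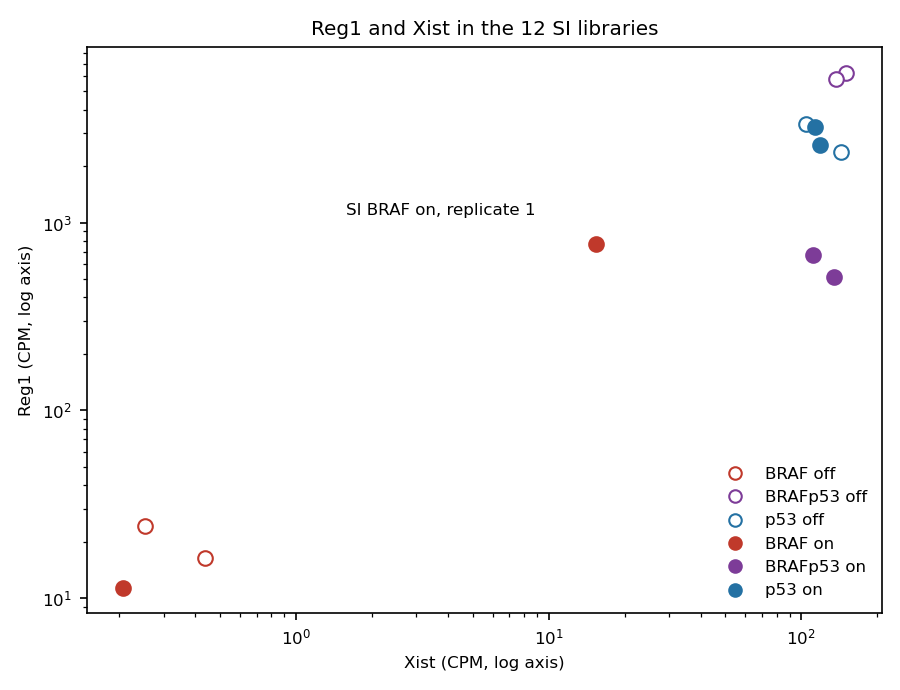
Reg1 (y axis) and Xist (x axis) in the 12 SI libraries, both in CPM on log axes, coloured by genotype with filled circles for on. The 3 other BRAF libraries lay at 0.206 to 0.437 CPM Xist and 11.4 to 24.3 CPM Reg1, and SI BRAF on replicate 1 lay at 15.4 CPM Xist, between them and the p53 and BRAFp53 libraries, and at 769 CPM Reg1, above the BRAFp53 on libraries (669 and 515 CPM) and below the other p53 and BRAFp53 libraries.

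In SI BRAFp53, Reg1 stood at 6277 and 5841 CPM off and at 669 and 515 CPM on. The groups did not overlap and the on level was lower by a log2 value of -3.36 ± 1.05, yet this did not pass the test over all genes (adjusted p = 0.0569). In a model of the 4 SI BRAFp53 libraries alone it did (adjusted p = 1.82e-06), and with 1 of these libraries left out of the model of all SI libraries it did not (adjusted p = 0.125 to 0.276). Each model of all SI libraries took 1 spread per gene over all groups, among them SI BRAF on with 769 and 11.4 CPM of Reg1. How far that pair set the result was not tested. In SI p53 Reg1 stood at 2382 and 3331 CPM off and 3219 and 2574 CPM on. In COL it never exceeded 6.33 CPM. It fell in COL BRAF from 2.43 and 6.33 CPM to 0.401 and 0.659 CPM (-3.05 ± 0.81, adjusted p = 0.0202), and this call was lost without off replicate 2 (adjusted p = 0.14), on replicate 1 (0.136) or on replicate 2 (0.0664). COL BRAFp53 held 0.466 and 3.1 CPM off and 0.259 and 0.59 CPM on, and these pairs overlapped (-2.08, adjusted p = 0.0938).

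Reg2, the closest relative of Reg1, was close to the limit of detection in all groups but SI BRAFp53 on. It had 0 to 15 counts in the SI libraries other than BRAFp53 on. In SI BRAFp53 on it had 210 and 699 counts (3.82 and 10.6 CPM), against 2 and 10 counts in SI BRAFp53 off. Reg2 rose there by 6.06 ± 0.88 on the log2 scale (adjusted p = 0.000587). In SI BRAF it had 2 and 14 counts off and 0 and 3 counts on (-1.97, adjusted p = 0.265). No COL library held more than 6 counts. Markers of pancreatic acinar cells, another known source of Reg1 and Reg2, were looked up beside these values: Prss1 and Ptf1a were at 0 in all 24 libraries. Of the 12 markers of the list, 2 were above 3 counts in both libraries of SI BRAFp53 off and 4 in SI BRAFp53 on, where Reg2 rose. Their summed level was 21.1 to 21.9 CPM off and 14 to 14.4 CPM on, most of it Cela1 and Ctrb1. Ctrb1, a chymotrypsinogen, fell there (-2.89, adjusted p = 8.18e-05), and Pnlip, the pancreatic lipase, had 10 and 1 counts off and 35 and 84 counts on (adjusted p = 0.0598). In SI BRAF, 2 of these markers were above 3 counts in both off libraries and 4 in both on libraries. Reg2 did not rise there. The part of pancreatic acinar cells in the Reg2 values was not tested.

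Reg4, the marker of secretory cells, went the other way in SI. It stood at 12.4 and 7.79 CPM in SI BRAF off and at 45.9 and 27.2 CPM in SI BRAF on. It rose there by 1.87 ± 0.43 (adjusted p = 0.00507), and by 1.46 without on replicate 1 (adjusted p = 0.0298). The call was lost without off replicate 2 (adjusted p = 0.0619). In SI BRAFp53, with 17.4 and 40.8 CPM off and 88 and 60.5 CPM on, the groups did not overlap, but the change of 1.35 ± 0.42 was not called (adjusted p = 0.0532). In SI p53 it stood at 13.1 and 12 CPM off and 19.5 and 8.32 CPM on. In COL the changes were small: 61.9 and 56.4 CPM became 43.7 and 41.8 CPM in BRAF (-0.47, adjusted p = 0.0578), and 49.2 and 51.3 CPM became 66.6 and 72.7 CPM in BRAFp53 (0.47, adjusted p = 0.06). COL p53 held 73 and 103 CPM off and 75.2 and 92.3 CPM on.

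In SI, 3 of the 7 members fell and 2 rose in BRAF organoids, against 14.2% of all tested genes called lower and 17.5% called higher. Without on replicate 1, 6 members were called, with Reg1 and Reg3b among those that fell, against 14.3% of all genes called lower and 15.4% called higher. In SI BRAFp53, 2 fell and 1 rose, against 4.53% called lower and 6.98% called higher. This count of 3 depended on the model: it was 6 in a model of the genotype alone, with the replicate number as a block or without a filter on low counts, where Reg1 and Reg3b (lower) and Reg4 (higher) were called as well, and 5 with limma-voom. With p53R172H alone no member was called by the main edgeR model in either tissue, while 0.142% of all genes were called in COL and 0% in SI. Without a filter on low counts edgeR called 2 members in COL p53. Members with an unadjusted p under 0.05 numbered 1 in COL p53 (Reg3a) and 0 in SI p53. DESeq2 called 1 member in COL p53 and 0 in SI p53, and limma-voom called 0 in both.

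Whether the addition of p53R172H changed the response to BRAFV600E was tested by subtracting the log2 response of BRAF organoids from that of BRAFp53 organoids. In SI, 2 of 7 members differed, against 8.2% of all genes. Reg1 differed by -7.62 ± 1.52 (adjusted p = 0.00837), and by -2.52 without SI BRAF on replicate 1 (adjusted p = 0.000383). Reg2 differed by 8.02 ± 1.47 (adjusted p = 0.00513), and by 6.90 without that library (adjusted p = 0.00811). Without SI BRAF off replicate 2, the adjusted p was 0.0592 for Reg1 and 0.203 for Reg2. Leaving out SI BRAF on replicate 1 added Reg3a (0.83, adjusted p = 0.0315) and Reg3d (2.67, adjusted p = 0.00755) to the members that differed. In COL, 0 of 5 members differed by the main edgeR model, against 0.907% of all genes, with 1 member (Reg4) at an unadjusted p under 0.05. There edgeR called 3 members without a filter on low counts and 1 with at least 10 counts in every library. DESeq2 called 1 member and limma-voom called 0. The COL difference for Reg4 was 0.94 ± 0.22 (adjusted p = 0.0663), and for Reg3g it was 1.42 with a 95% interval from -0.04 to 2.89.

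Whether the tissues differed in their response was tested in a joint model of the 24 libraries. For BRAF, 3 of 7 members differed, against 10.7% of all genes: Reg1 (-7.34 ± 1.65, adjusted p = 0.00683), Reg3b (-2.67 ± 0.83, adjusted p = 0.0455) and Reg4 (-2.37 ± 0.52, adjusted p = 0.0058), each lower in COL than in SI. Without SI BRAF on replicate 1 the difference for Reg4 was -1.96 and remained called (adjusted p = 0.029), while Reg1 (-2.27, adjusted p = 0.115) and Reg3b (-1.91, adjusted p = 0.207) were not called. The call of Reg3b was kept without SI BRAF on replicate 2 (adjusted p = 0.0261) and lost without any 1 of the other 7 libraries compared, with adjusted p-values from 0.0792 to 0.207. For BRAFp53, 1 of 7 members differed, against 3.52% of all genes. This was Reg3a (-2.26 ± 0.60, adjusted p = 0.0433), and the call was lost without any 1 of 7 of the 8 libraries compared (all but COL BRAFp53 off replicate 1), with adjusted p-values from 0.0581 to 0.266. Reg2 and Reg3d had no more than 6 counts per COL library, and no difference of responses is given for them.

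**Figure D5:**
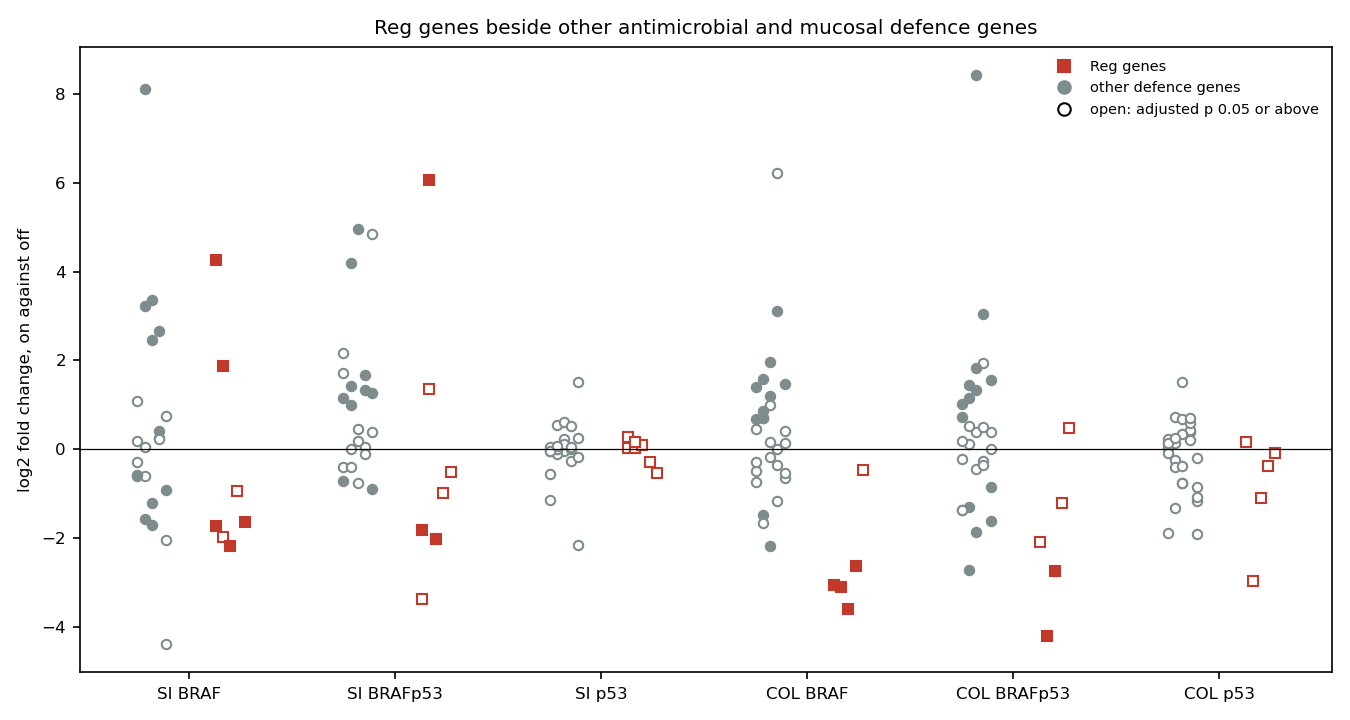
Log2 fold change upon induction (y axis) of the Reg genes (squares) and of the other antimicrobial and mucosal defence genes tested (circles) in the 6 combinations of tissue and genotype (x axis); filled symbols have an adjusted p under 0.05. In COL BRAF all 4 called Reg genes lay at or below -2.63, where 9 of 11 called other defence genes lay above 0.

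Other antimicrobial and mucosal defence genes (34 listed, chosen with results of these data known) were more often called higher than lower in 3 of the 4 groups with BRAFV600E. In COL BRAF 9 of 28 tested rose and 2 fell, with a median log2 fold change of 0.29 against -0.01 over all genes. In COL BRAFp53 9 rose and 5 fell (median 0.29, all genes -0.04). In SI BRAF 6 of 22 rose and 6 fell (median 0.13, all genes -0.06), and without on replicate 1 these were 5 and 6 of 25, with a median of -0.36. In SI BRAFp53 8 rose and 2 fell (median 0.72, all genes -0.03). The shares of all genes called higher and lower were 10.3% and 9.61% in COL BRAF, 9.95% and 7.76% in COL BRAFp53, 17.5% and 14.2% in SI BRAF and 6.98% and 4.53% in SI BRAFp53. Zg16, a lectin of goblet cells that binds Gram-positive bacteria, rose in all 4 groups with BRAFV600E: by 1.96 in COL BRAF (adjusted p = 0.000814), 1.82 in COL BRAFp53 (0.00153), 3.23 in SI BRAF (2.62e-06) and 4.19 in SI BRAFp53 (2.07e-06). Sprr1a, a cornified envelope protein, rose by 3.05 to 4.95 in the same groups. Among the genes that fell were Ccl28, a chemokine of mucosal epithelium, with a change of -2.17 in COL BRAF, -1.85 in COL BRAFp53 and -1.22 in SI BRAF, and Pigr, the transporter of secretory immunoglobulins, with -1.47 in COL BRAF, -1.30 in COL BRAFp53, -0.92 in SI BRAF and -0.88 in SI BRAFp53. The serum amyloid genes Saa3 and Saa1, acute-phase proteins of epithelium, fell in COL BRAFp53 (-2.71, adjusted p = 0.00183, and -1.61, adjusted p = 0.0209), as Reg3b did. In COL BRAF the values were -1.65 for Saa3 (adjusted p = 0.0507) and 0.42 for Saa1 (adjusted p = 0.54). In COL p53 they were -1.33 (adjusted p = 0.309) and -1.91 (adjusted p = 0.128), with on and off libraries that did not overlap for either gene. Duoxa2, needed for the hydrogen peroxide-making Duox2, rose by 1.58 in COL BRAF and by 1.45 in COL BRAFp53. S100a9, a subunit of the metal-binding calprotectin, had 137 and 138 counts in SI BRAF on and 1 and 0 counts in SI BRAF off. Lyz1 and Itln1, products of Paneth cells, fell in SI BRAF (-1.58, adjusted p = 0.000115, and -1.70, adjusted p = 7.91e-06), as Reg3a and Reg3g did. In off organoids 15 of 26 tested defence genes were higher in COL than in SI and none was lower, where 17% of all genes were called higher and 12.6% lower. Reg1, Reg3a and Reg3g were lower in COL. Retnlb was the extreme, with 0 counts in every SI library and 0.851 to 62.6 CPM in COL.

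The known inputs of the Reg3 genes were measured beside them. Il22ra1, the epithelial subunit of the interleukin-22 receptor, rose by 1.75 in COL BRAF (adjusted p = 0.000808). It also rose by 0.91 in COL BRAFp53 (adjusted p = 0.0266) and by 1.41 in SI BRAF (adjusted p = 0.00373). Reg3g or Reg3b fell in each of these groups. In COL BRAF, Il22ra1 went from 4.65 and 3.76 CPM to 15.4 and 12.8 CPM. Stat3, which carries the signal, rose in SI BRAF (0.99, adjusted p = 9.88e-05) and COL BRAFp53 (0.63, adjusted p = 0.0415). Of the 28 interleukin-22, interleukin-6 and Stat3 pathway genes tested in COL BRAF, 9 rose and 0 fell (median 0.45), and of 25 in SI BRAF, 10 rose and 2 fell (median 0.53), where 10.3% and 17.5% of all genes were called higher and 9.61% and 14.2% lower. In COL BRAFp53 6 rose and 1 fell, and in SI BRAFp53 4 rose and 0 fell. Of all genes, 9.95% and 6.98% were called higher there and 7.76% and 4.53% lower. Il1rn, the antagonist of the interleukin-1 receptor, was the largest of the called rises in COL BRAF (2.58), COL BRAFp53 (2.07) and SI BRAF (3.58). In SI BRAFp53 it was Fut2 (2.85), the fucosyltransferase that is known as a target of interleukin-22. Of 21 microbial sensing genes tested, 7 rose and 1 fell in COL BRAF, and 6 rose and 1 fell in COL BRAFp53. In SI BRAF 5 rose and 3 fell, shares near the 17.5% and 14.2% of all genes called there. In SI BRAFp53 2 rose and 1 fell, also near the 6.98% and 4.53% of all genes called there. Without SI BRAF on replicate 1, 4 of the sensing genes rose and 1 fell in SI BRAF, and 10 of the interleukin-22 list rose and 1 fell. Nlrp6, an inflammasome sensor, fell in COL BRAF (-1.30) and COL BRAFp53 (-1.47) and rose in SI BRAF (0.40, adjusted p = 0.0144, and 0.54 without on replicate 1). Tlr4, the receptor for lipopolysaccharide, rose in COL BRAF (1.08, adjusted p = 0.0067) and was at most 0.594 CPM in SI. Extl3, a reported receptor of Reg proteins, was expressed at 15.6 to 39.7 CPM in every library, higher in off COL than in off SI (0.61, adjusted p = 0.0124). Egfr, a reported partner of Reg signalling, rose in COL BRAF (0.64) and COL BRAFp53 (0.81) and fell in SI BRAF (-0.50). Without SI BRAF on replicate 1, the calls of Zg16 (3.59), Sprr1a (3.63), Ccl28 (-1.82), Pigr (-1.21), Lyz1 (-1.85), Itln1 (-1.87), Il22ra1 (1.84), Stat3 (1.13), Il1rn (3.65) and Egfr (-0.78) in SI BRAF were kept. The part of any of these genes in the changes of the Reg genes was not tested.

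Markers of the cell types that are known to make Reg proteins were summed and tested beside them, and the counts of markers called stand against the shares of all genes called that are given above for each comparison. The 12 Paneth cell markers were all detected in every group, and their summed level went from 700 and 718 CPM in SI BRAF off to 234 and 263 CPM in SI BRAF on, as Reg3a and Reg3g fell, and 8 of the 12 markers fell there, a count that was also 8 without on replicate 1. In SI BRAFp53, where Reg3a and Reg3g fell as well, the sum was 240 to 294 CPM off and 325 to 439 CPM on. There 5 markers rose and 0 fell. In off organoids 5 of the 12 markers were called higher in COL than in SI and 0 lower. The COL sums are given as levels of these genes, not as a measure of Paneth cells. In COL BRAF the sum was 1121 to 1266 CPM off and 1286 to 1358 CPM on, with Nupr1 (149 and 136 CPM off, 357 and 325 CPM on) and Mmp7 (log2 fold change 0.69, adjusted p = 0.0229) rising. Lyz1 stood at 314 and 292 CPM off and 283 and 255 CPM on, and Itln1 at 234 and 205 CPM off and 185 and 161 CPM on, and neither change was called. In COL BRAF Habp2 (-2.31, adjusted p = 0.00315) and Fgfrl1 (-0.87, adjusted p = 0.0167) fell, and the median log2 fold change of the 12 was -0.43. The defensin Defa17 stood at 72.2 and 60.5 CPM off and 26.9 and 28.2 CPM on in COL BRAF (adjusted p = 0.0857). In COL BRAFp53, 4 markers fell, among them Defa17 (-1.81, adjusted p = 0.0237) and Defa22 (-1.02, adjusted p = 0.0148), and 2 rose, with a median of -0.64. The 9 goblet cell markers went from 932 and 964 CPM to 1455 and 1663 CPM in SI BRAF, from 574 and 611 CPM to 1775 and 2020 CPM in SI BRAFp53, from 1914 and 2039 CPM to 3483 and 3809 CPM in COL BRAF and from 1752 and 2173 CPM to 4079 and 4312 CPM in COL BRAFp53. Reg4 rose in SI BRAF, stood lower on than off in COL BRAF and higher on than off in COL BRAFp53, and neither COL change was called. The 4 deep crypt secretory markers other than Reg4 had summed levels of 836 to 876 CPM off and 1556 to 1606 CPM on in COL BRAF, and of 857 to 1058 CPM off and 2130 to 2280 CPM on in COL BRAFp53. These sums were carried by Agr2 and Spink4, which are goblet cell markers as well and rose in both. Kit, the receptor that marks deep crypt secretory cells, fell (-1.44, adjusted p = 0.000523, in COL BRAF and -1.65, adjusted p = 0.00027, in COL BRAFp53), and Retnlb gave -1.15 (adjusted p = 0.149) and -0.35 (adjusted p = 0.639). The 14 enteroendocrine markers had summed levels of 250 to 407 CPM off and 674 to 778 CPM on in COL BRAF, where 7 rose and 0 fell, and of 274 to 349 CPM off and 556 to 737 CPM on in COL BRAFp53, where 5 rose and 0 fell. In SI BRAF 3 of them rose and 0 fell (median 0.47), near the 17.5% of all genes called higher, and without on replicate 1 these were 2 and 0 with a median of -0.19, against 15.4% of all genes. In SI BRAFp53 3 rose and 1 fell. The 10 enterocyte markers went from 11328 to 14619 CPM in SI BRAF off to 46563 to 50932 CPM in SI BRAF on, and the 5 stem cell markers from 353 to 387 CPM to 47.3 to 141 CPM, over the libraries of each group. In COL BRAF the stem cell sum was 345 to 421 CPM off and 113 to 158 CPM on. In COL BRAFp53 it was 516 to 636 and 153 to 207 CPM, and 4 of 5 markers fell in each. The enterocyte sum was 2387 to 2399 and 3297 to 3692 CPM in COL BRAF. In COL BRAFp53 it was 1935 to 2258 and 2469 to 3781 CPM, and 3 markers rose and 3 fell in each. In SI BRAFp53 it was 20332 to 23785 and 30680 to 31337 CPM. Stem cell markers there summed to 288 to 401 and 195 to 222 CPM. The part of these cell types in the changes of the Reg genes was not tested.

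Within a tissue, Reg genes varied together in part. Over the 12 SI libraries, Pearson's r of the log2 levels was 0.85 for Reg3a and Reg3g, 0.83 for Reg1 and Reg3b and -0.76 for Reg3a and Reg4, and over the 12 COL libraries it was 0.86 for Reg3a and Reg3b. These values describe libraries that share culture, state and depth. The nearest genes were sought by Pearson's r of log2 CPM with a prior count of 2, a scale that differs from the one used between members. Among 8386 SI genes, the nearest to Reg3a were Aldh18a1, Rpl14-ps1, Tgm2 and Oxa1l (r = 0.98 to 0.99). Nearest to Reg1 were Bpnt1, Adh4, Casp6 and Adh1 (r = 0.95 to 0.96), and to Reg3b Tubb2b, Larp4, Adh7 and Coq7 (r = 0.97). Nearest to Reg3g were Tsc22d1, Usp22, Eif3h and Atp5s (r = 0.95 to 0.96). Nearest to Reg3d were Bub1, Hspb6, Nup133 and Dcps (r = 0.96 to 0.97). Nearest to Reg2 were Stc2, Gjb1, Elp6 and Arhgef38 (r = 0.89 to 0.92), and to Reg4 Higd1a, Erp44, Ppp1r11 and Anxa10 (r = 0.91 to 0.93). Among 8968 COL genes, the nearest to Reg3b were Oip5, B2m, Mt2 and Glrx (r = 0.94 to 0.96), the nearest to Reg3g were Acyp1, Hspe1, Ugt2b35 and Chchd7 (r = 0.92 to 0.95), the nearest to Reg1 were Unk, Trub1, Supt3 and Ankrd26 (r = 0.86 to 0.93) and the nearest to Reg4 were Mpc1-ps, Vps33b, Ndufa1 and Ctns (r = 0.94 to 0.96).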

How the data were processed

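RNA of 24 organoid libraries (12 SI, 12 COL) was sequenced paired-end. The authors deposited 1 table of unnormalized read counts by gene for each tissue, in which replicates stand apart. Per the submitters' processing notes, reads were trimmed with Trimmomatic 0.36 and aligned with STAR 2.5.2b; the notes name the builds mm9 and mm10, and the study's methods name mm10 (GRCm38). Which annotation release was counted against, and whether strand was used, is not given in the sources used here. Of 45706 identifiers, 45143 matched a GENCODE M21 symbol.

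Counts of the 12 libraries of a tissue were scaled by TMM, filtered with filterByExpr and fitted in 1 model with a mean per group (edgeR 4.0.16, quasi-likelihood F test, R 4.3.3). Contrasts were on less off for every genotype and the BRAFp53 response less the BRAF response. Tissue differences of responses came from 1 model of all 24 libraries, and off organoids were compared with the off libraries of each culture summed. P-values were adjusted over all genes (Benjamini-Hochberg, 0.05). Each interval uses the residual degrees of freedom that link the gene's F to its p. The scripts were tested on simulated data. Alternatives were limma-voom (limma 3.58.1), DESeq2 1.42.0, RLE factors, a replicate block, models of 1 genotype, no filter, a minimum of 10 counts for every library, and leaving out each library or culture. Where a library was left out, the lone library of its group was taken to vary like the others.

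CPM per kb used the first-named GENCODE M21 transcript of each gene. Promoter sequences are from RefSeq (GRCm38.p6). Depth limits counts near 0: 3 counts are the upper limit for 0, and this covers counting error only.

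Named were all 7 members, up to 3 called genes per direction with the largest change per list and comparison, a fixed set of 18 genes (among them Il22ra1, Stat3, Tlr4, Extl3, Egfr, Lyz1, Zg16 and Itln1) and, per member at 1 CPM or more in a tissue, the 4 genes of highest correlation with an average log2 CPM of at least 3. The members and gene lists were chosen with earlier results of these data known. Gene names not covered by this rule describe the libraries: Xist, Ddx3y, Gata4, Fabp1, Hoxa13, the acinar genes Cela1, Prss1, Ptf1a, Ctrb1 and Pnlip, and the Paneth cell genes Nupr1, Mmp7, Habp2, Fgfrl1, Defa17 and Defa22, and the secretory genes Agr2, Spink4, Kit and Retnlb. Those after Ptf1a, with Fabp1 and Hoxa13, were chosen after their values were seen.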

Additional observations from a re-analysis of the deposited data

Results flagged for a closer look

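Several differences between responses passed the test of the difference itself (edgeR's quasi-likelihood test of the contrast, adjusted over all genes). Between BRAFp53 and BRAF organoids of the SI, the responses differed by -7.62 for Reg1 (adjusted p = 0.00837) and by 8.02 for Reg2 (adjusted p = 0.00513) on the log2 scale. Reg1 went from 6277 and 5841 CPM to 669 and 515 CPM in BRAFp53, and from 24.3 and 16.5 CPM to 769 and 11.4 CPM in BRAF, so its value depends on SI BRAF on replicate 1, without which it was -2.52. Reg2 was measured at more than 15 counts in SI BRAFp53 on alone, in both of its libraries.

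Between COL and SI, the BRAF responses differed by -7.34 for Reg1 (adjusted p = 0.00683), by -2.67 for Reg3b (adjusted p = 0.0455) and by -2.37 for Reg4 (adjusted p = 0.0058). Without SI BRAF on replicate 1, Reg1 (-2.27, adjusted p = 0.115) and Reg3b (-1.91, adjusted p = 0.207) did not pass, and Reg4 did (-1.96, adjusted p = 0.029). The BRAFp53 responses differed by -2.26 for Reg3a (adjusted p = 0.0433). This call was lost with limma-voom and without most of the single libraries compared, and Reg3a had only 8 and 16 counts in COL BRAFp53 on. Tissue, dose, day of RNA isolation and culture medium cannot be told apart in these values. Groups of 2 libraries are too small for a test of single outlying samples.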

How the results depend on the processing

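Of 25 differences of a member that were called, 139 of 150 values under other settings kept direction and call and 11 kept the direction only, and with 1 library or culture left out 94 of 134 kept both, 39 kept the direction only and 1 turned (Reg1 in SI BRAF). The numbers of members called that moved by over 1.5 times were as follows. Without a filter they were 2 in COL p53 (0 in the main analysis), 5 in COL BRAFp53 (2), 6 in SI BRAFp53 (3), 3 for the difference of responses in COL (0) and 5 for the tissue difference of BRAFp53 responses (1). With at least 10 counts in every library they were 1 for the difference of responses in COL and 1 in SI (2). DESeq2 gave 1 in COL p53, 4 in COL BRAFp53 and 1 for the difference of responses in COL. Limma-voom gave 5 in SI BRAFp53, 1 for the difference of responses in SI, 1 for the tissue difference of BRAF responses (3) and 0 for that of BRAFp53 responses. Models of 1 genotype gave 4 in COL BRAFp53 and 6 in SI BRAFp53. With the replicate block the number was 6 in SI BRAFp53, and no other number moved by over 1.5 times. Replicate numbers did not pair the libraries (correlation of deviations -0.04 to 0.06). The cause of these moves was not tested.

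With 1 library or culture left out, the number called ranged from 2 to 3 in COL BRAF (fewest without off replicate 2 or on replicate 2), 0 to 2 in COL p53 (most without on replicate 2), 1 to 3 in COL BRAFp53 (fewest without either on library), 2 to 6 in SI BRAF (fewest without off replicate 2), 0 to 4 for the difference of responses in SI, 1 to 3 and 0 to 1 for the tissue differences of BRAF and BRAFp53 responses, and 2 to 5 between off organoids. Values that changed sign are Reg1 in SI BRAF (-0.82 to 5.23), Reg1 (-0.26 to 0.47), Reg3g (-1.97 to 0.35) and Reg4 (-0.30 to 0.19) in COL p53, Reg1 (-0.20 to 0.28), Reg2 (-0.55 to 0.9975), Reg3a (-0.0018 to 0.21), Reg3b (-0.53 to 0.00024), Reg3g (-0.16 to 0.62) and Reg4 (-0.59 to 0.64) in SI p53, Reg3a for the difference of responses in COL (-1.94 to 3.75), Reg3a (-0.26 to 0.83), Reg3b (-0.51 to 0.74), Reg3g (-0.50 to 0.22) and Reg4 (-0.9995 to 0.21) for that in SI, and Reg3b between off organoids (-0.56 to 0.24). Of these, only Reg1 in SI BRAF was called in the main analysis. Reg3b for the difference of responses in SI (-0.04) also turned with limma-voom (0.15) and with the replicate block (0.18). Scaling over all 24 libraries moved 22 of 84 mean levels by more than 1 SD.

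Groups of 2 libraries from 1 donor culture limit every induction result, for which the spread of animals was not measured. The comparison of off organoids rests on 3 cultures per tissue, each of another genotype. Reg2 and Reg3d in COL lie at or near 0 counts, where the depth cannot show a change.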

Other observations

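Reg1 differed between the SI cultures by more than any induction changed it. In off organoids it stood at 24.3 and 16.5 CPM in the BRAF culture, 2382 and 3331 CPM in the p53 culture and 6277 and 5841 CPM in the BRAFp53 culture. Each culture came from 1 donor, so no test of this difference was made. The summed level of the 7 Reg genes followed, with a mean of 838 CPM in SI BRAF off, 3833 CPM in SI p53 off and 6945 CPM in SI BRAFp53 off, and of 348, 355 and 518 CPM in COL BRAF, COL p53 and COL BRAFp53 off. As shares of all counts, the Reg genes took up to 0.721% of an SI library and up to 0.059% of a COL library. In SI BRAF on replicate 1, 6 of the 7 members were higher than in replicate 2, by 1.19 times for Reg3g to 67.5 times for Reg1.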
